A study of Homo sapiens with 8 samples.

Results

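The comparison described here is that of an siRNA against TFAP2C (TFAP2C KD) with a control siRNA, which takes 4 of the 8 mRNA-seq libraries of the study. All 4 come from HCT116, a human colorectal cancer cell line. The study's methods describe HCT116 cells that stably carry a Tet-On shRNA against UBA2, a subunit of the SUMO E1 enzyme that the labels call SAE2. Whether the siRNAs went into this shRNA line is not stated. The labels give each siRNA for 48 hrs, with 2 replicates per group, and name no Dox in these 4 libraries. Controls and knockdown share the transfection and, if the shRNA line was used, its construct. The other 4 libraries come from the shRNA line with Dox or, as its control, with DMSO. They are used only at the end, for a side by side comparison. The study asked whether SUMOylation acts on the acetylation of H3K27 at enhancers in these cells. Whether replicates were separate cultures is not stated, so p-values measure only the spread between these libraries, which may be technical.

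TFAP2C encodes AP-2 gamma, one of the AP-2 transcription factors, which bind GC-rich palindromic sites as dimers of themselves or of each other. The family acts in the development of skin, neural crest, placenta and germ cells, and its members can activate or repress a gene with cofactors such as CITED proteins or histone deacetylase complexes. AP-2 gamma is best known in cancer from breast epithelium, and it can be modified by SUMO.

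Read counts per gene were deposited for 42125 genes. Total counts lay between 20785035 and 24465109 per library, and 14991 genes had enough counts for the edgeR test. Levels are given here as CPM, the read count scaled to a common library size after TMM adjustment. The TFAP2C KD libraries differed from each other by a median of 0.125 on the log2 scale and the control libraries by 0.0803, beside 0.10 between the group means. Of 14 markers of colorectal epithelium, 7 were tested, and VIL1, CDX1, CDH17, MUC13 and CEACAM5, genes of differentiated colon cells, had at most 3 counts in every library. The summed level of the 14 was 1695 and 1737 CPM in the control libraries and 1828 to 1937 CPM in TFAP2C KD. Summed levels of markers, here and below, are scaled by the total counts of each library without the TMM adjustment. Summed markers stayed under 50 CPM in every library for fibroblasts and under 4 CPM each for immune cells, endothelium and neurons.

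TFAP2C mRNA was measured first, as a check of the labels. TFAP2C (chromosome 20, 56629306 to 56639283 on GRCh38, plus strand) had 18.9 and 20.5 CPM in the control libraries and 3.46 and 4.3 CPM in TFAP2C KD. Both knockdown libraries lay far below both controls, and the log2 fold change was -2.34 (SE 0.13, adjusted p = 7.67e-06), the lowest of all genes tested. It rests on 427 to 460 counts per control library. TFAP2A, which encodes AP-2 alpha and can form dimers with AP-2 gamma, also fell. It had 61.1 and 61.4 CPM with control siRNA and 47.4 and 46.2 CPM in TFAP2C KD, a change of -0.39 (SE 0.08, adjusted p = 0.0361), and it missed the threshold without either control library in turn. TFAP2C and TFAP2A were the 2 genes called among 13 tested members of a list of AP-2 factors and their cofactors, beside a background of 0.74% of all genes. KCTD15, which binds AP-2 proteins and inhibits them, had a log2 fold change of -0.34 that did not pass the test (adjusted p = 0.088). Of 30 tested genes described as AP-2 targets in other tissues, CDKN1A was the only one past the threshold, and 17 lay above 0. At an unadjusted p under 0.05 were 13 of the 30, 8 of them higher, beside 1889 of all 14991 genes. The list was written with earlier results of these data known.

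At an adjusted p under 0.05, 111 genes were differentially expressed (0.74% of those tested). Of these, 39 were higher (0.26%) and 72 lower (0.48%) in TFAP2C KD. At an unadjusted p under 0.05 the numbers were 851 and 1038. The genes past an adjusted p of 0.05 are called below, or said to have risen or fallen. In all 111 genes both knockdown libraries lay outside the range of the controls, as they did in 44.7% of all genes tested. Most changes were small. The median size was 0.50 on the log2 scale among rising genes and 0.57 among falling ones, 28 of the 39 and 38 of the 72 moved by less than 1.5-fold, and 5 in each direction reached 2-fold. The number of genes depended on single libraries. Without TFAP2C KD replicate 2 it was 1330 higher and 1495 lower, without TFAP2C KD replicate 1 it was 246 and 291, without control replicate 1 it was 14 and 35, and without control replicate 2 it was 24 and 50. A set of 29 genes, 8 that rose and 21 that fell, passed the threshold under each of 13 other settings. DESeq2 called 52 genes higher and 62 lower, so the share of rising genes was 45.6% there against 35.1% in edgeR.

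**Figure D1:**
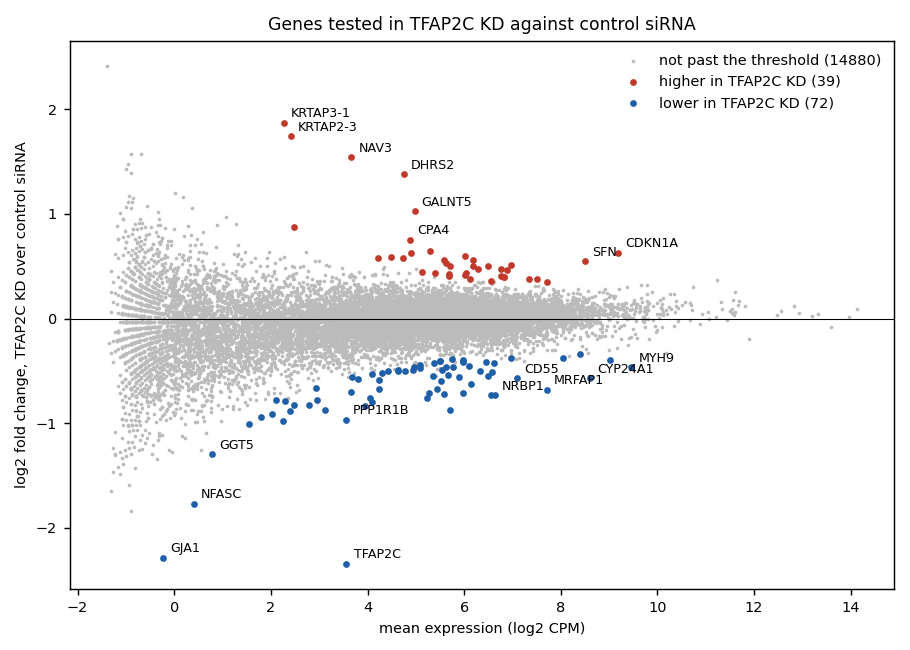
Log2 fold change of TFAP2C KD over control siRNA against mean expression in log2 CPM for 14991 genes, 1 point per gene. The 39 genes that rose are red and the 72 that fell are blue, TFAP2C has the lowest value at -2.34, and GJA1, NFASC and GGT5 are the 3 called genes with a mean log2 CPM under 1.

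The 5 largest rises, in order of size, were in KRTAP3-1, KRTAP2-3, NAV3, DHRS2 and GALNT5. KRTAP3-1 and KRTAP2-3 encode keratin-associated proteins, which build the matrix of the hair shaft. KRTAP3-1 had 1.89 and 2.16 CPM in the control libraries and 7.67 and 7.11 CPM in TFAP2C KD, a log2 fold change of 1.87 (SE 0.16, adjusted p = 0.000237). KRTAP2-3 went from 2.01 and 2.83 to 7.63 and 8.46 CPM, a change of 1.74 (SE 0.17). These were the only 2 tested of 95 keratin-associated protein genes in the table, and as members of a family of near-identical copies their counts are uncertain. NAV3, a neuronal protein of microtubule ends, had 6.03 and 6.81 CPM with control siRNA and 18.3 and 19.1 CPM in TFAP2C KD (log2 fold change 1.55, SE 0.12, adjusted p = 6.2e-05). DHRS2, a short-chain dehydrogenase, rose from 13.7 and 16.1 CPM to 39.3 and 38 CPM, a change of 1.38 with the same adjusted p as NAV3 (SE 0.10). GALNT5, which starts mucin-type O-glycans in the Golgi, was at 21.1 and 20.0 CPM in the controls and reached 37.7 and 46.3 CPM (log2 fold change 1.03, SE 0.11). These are the 5 called genes that rose by more than 2-fold, and groups that do not overlap were required by the rule that named them.

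Next in size among the rises came GGT1 and CPA4. Of 6 called genes grouped as proteases and their inhibitors, 3 rose and 3 fell, beside 39 and 72 of all 111 called genes. CPA4, a metallocarboxypeptidase, went from 22.4 and 21.5 CPM to 37.5 and 36.6 CPM (log2 fold change 0.76, SE 0.09, adjusted p = 0.00161). Its replicates differed by far less than the groups did. GGT1, a gamma-glutamyltransferase that cleaves glutathione, rose from 3.9 and 3.84 CPM to 7.8 and 6.4 CPM (log2 fold change 0.88, SE 0.15). GGT1 missed the threshold in DESeq2 and belongs to a family of close copies. The DNA-binding protein ARID3A had a log2 fold change of 0.63, the ankyrin repeat gene ANKRD33B of 0.60 and the ribosomal protein gene RPL41 of 0.58. RPL41 had 19.8 and 15.7 CPM in the controls and 25.8 and 27.7 CPM in TFAP2C KD, and it was not past the threshold without control replicate 2. Reads of RPL41 can also match its pseudogenes.

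**Figure D2:**
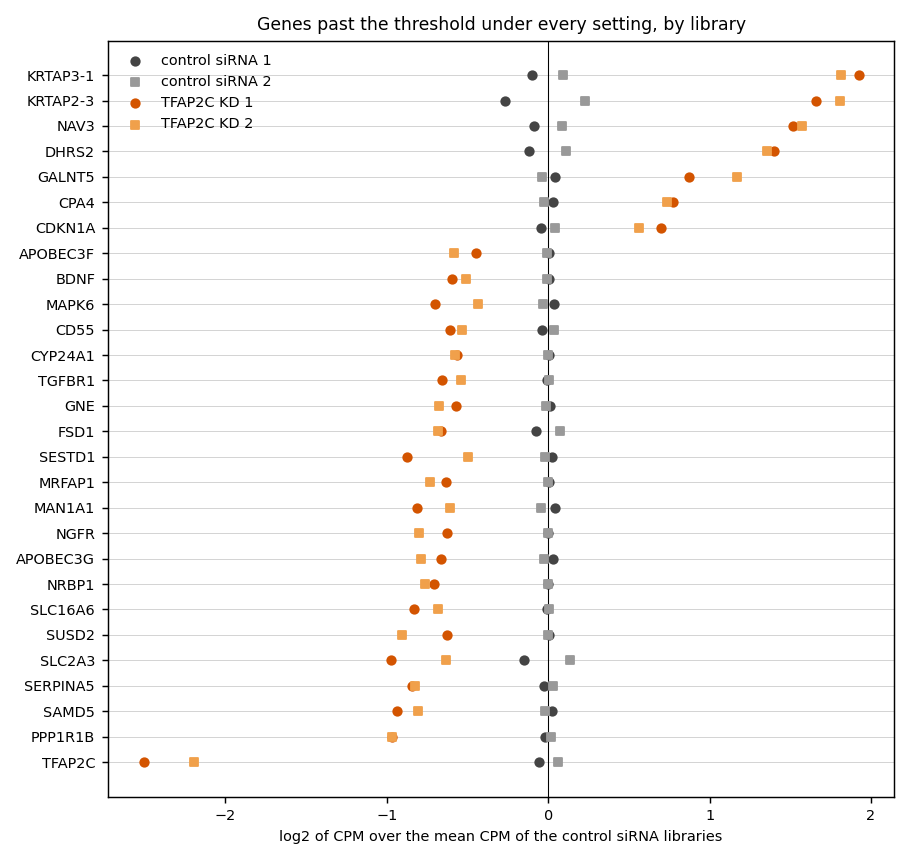
Level of 28 of the 29 genes that passed the threshold under every setting tried, as the log2 ratio of the CPM in each library to the mean of the 2 control siRNA libraries, with 1 point per library. The control points sit near 0 and the TFAP2C KD points lie apart from them in each gene, from KRTAP3-1 at the top, where they exceed 1.5, to TFAP2C at the bottom, where they are below -2.

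Where the mean log2 CPM was 1 or more, the largest falls after TFAP2C were in GPRIN3, RGS5, PPP1R1B and GRIK4. PPP1R1B encodes DARPP-32, an inhibitor of protein phosphatase 1 in neurons that respond to dopamine. It had 15.2 and 15.6 CPM in the controls and 7.88 CPM in both knockdown libraries, a log2 fold change of -0.97 (SE 0.11, adjusted p = 0.00151). GRIK4, a subunit of kainate-type glutamate receptors, went from 4.72 and 4.22 CPM to 2.33 CPM in both libraries (-0.94, SE 0.17). GPRIN3, of a family that couples G proteins to neurite growth, had 3.69 and 3.88 CPM against 1.71 and 2.06 CPM (-1.01, SE 0.19). RGS5, which speeds the shutdown of G alpha subunits, had 6.65 and 5.66 CPM against 3.04 and 3.22 CPM (-0.98, SE 0.16). The 4 genes stood at 0.497 to 0.521 of their control level. That their groups did not overlap was required by the rule that named them. PPP1R1B was past the threshold in every setting, whereas GRIK4, GPRIN3 and RGS5 were not in DESeq2.

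SERPINA5, a serpin that inhibits activated protein C, was among the most stable falls. It had 19.2 and 20.0 CPM with control siRNA and 10.9 and 11.1 CPM in TFAP2C KD (log2 fold change -0.84, SE 0.10, adjusted p = 0.00241). SAMD5, a protein with a sterile alpha motif, had 11.4 and 11 CPM against 5.84 and 6.4 CPM (-0.87, SE 0.12). For both, the replicates of a group nearly coincided. AC080038.1, a protein-coding gene known by its clone name, had 65.4 and 69.0 CPM against 37.2 and 35.9 CPM (-0.88, SE 0.08, adjusted p = 0.000291). The others of the 12 largest falls above this level were PNMA2, a paraneoplastic antigen (-0.91), SLC6A20, a transporter of proline (-0.89), AC016074.2, a long intergenic RNA of chromosome 8 (-0.82), CNTNAP3, a contactin-associated protein (-0.82), and SLC2A3, the glucose transporter GLUT3 (-0.79). At lower counts GJA1, which encodes connexin 43, was counted 29 times in each control library and 7 and 5 times in TFAP2C KD (-2.29, SE 0.38, adjusted p = 0.0171). The paranodal adhesion gene NFASC had 40 and 47 counts against 14 and 12 (-1.77, SE 0.31), and DESeq2 gave no adjusted p for GJA1 and NFASC.

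Among transcription factors and chromatin genes, 3 rose and 8 fell, beside 39 and 72 of all 111 called genes. These groups of roles were made from the 111 genes after they were known and only serve to order them. As most of the 111 fell, a group in which most fell is not set apart by that. The falling factors besides TFAP2C and TFAP2A were NFIB of the nuclear factor I family (-0.41), the forkhead factor FOXC1 (-0.43), the zinc finger gene ZNF704 (-0.55), the corepressor HR (-0.54), the nuclear receptor coactivator NCOA7 (-0.51) and KMT5A, the methyltransferase of histone H4 lysine 20 (-0.52). FOXC1 was at 111 and 113 CPM in the controls and at 85.3 and 80.9 CPM in TFAP2C KD. The rising ones were the AP-1 subunit FOSL1 (0.51), the orphan nuclear receptor NR2F2 (0.42) and ARID3A. FOSL1 had 98.4 and 107 CPM with control siRNA and 151 and 143 CPM in TFAP2C KD, with an adjusted p of 0.00793. All 3 genes grouped as cell cycle inhibitors rose, beside 39 of all 111 called genes. CDKN1A, the inhibitor p21 of cyclin-dependent kinases, had 444 and 472 CPM in the controls against 744 and 675 CPM, SFN, the 14-3-3 protein sigma, had 283 and 304 CPM against 454 and 405 CPM, and the antiproliferative gene BTG2 had 80.4 and 83.1 CPM against 105 and 104 CPM. Their log2 fold changes were 0.63, 0.55 and 0.36. BTG2 was past the threshold in only 9 of the 13 other settings. Lists of genes that carry out the cycle held 0 calls in edgeR and in DESeq2. Of 41 tested genes of DNA replication, 26 lay above 0, 3 had an unadjusted p under 0.05, and the median was 0.036, which fell below 0 when a library was left out. Of 45 genes of mitosis 26 lay above 0 and 8 had an unadjusted p under 0.05, with a median of 0.023 that turned negative with library size scaling. CCNE1 (0.23, adjusted p = 0.278) and TPX2 (0.21, adjusted p = 0.237) had among the smallest p-values there.

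Genes of neuronal signalling and adhesion made up 16 of the 111, with 4 higher and 12 lower, beside 39 and 72 of all 111. Of the 12, DESeq2 called PPP1R1B, BDNF, NGFR and GRIN2B. It did not call GRIK4, NOVA2, GPRIN3, SEMA3A, PNMA2, CNTNAP3 and OLFM1, and it gave no adjusted p for NFASC. Those that fell included a neurotrophin and a receptor for it. BDNF had 107 and 106 CPM in the controls and 70.5 and 74.6 CPM in TFAP2C KD (log2 fold change -0.55, SE 0.07, adjusted p = 0.00375). NGFR, the receptor p75 of neurotrophins, had 48.1 CPM in both controls and 31.2 and 27.7 CPM in TFAP2C KD (-0.71, SE 0.09). The control libraries nearly coincided for BDNF and NGFR, and both genes passed in every setting. The NMDA receptor subunit GRIN2B (-0.46), the splicing regulator of neurons NOVA2 (-0.50) and olfactomedin 1, OLFM1 (-0.53), also fell. Semaphorins, which steer axons and moving cells, went both ways. The secreted SEMA3A fell from 121 and 114 CPM to 59.9 and 81.8 CPM (-0.73), and the membrane-anchored SEMA7A rose from 28.6 and 30.4 CPM to 42.0 and 38.3 CPM (0.45). NAV3, the microtubule-binding kinase DCLK1 (0.58) and the secretory granule protein SCG2 (0.56) were the other neuronal genes that rose. In a list of 47 tested genes of axon guidance and neurites, 2 were higher and 2 lower in edgeR, beside 0.74% of all genes called, and DESeq2 called 2 of the 47. Of the list, 31 lay below 0 or at it, and the median was -0.096, beside -0.0038 for all genes tested. The summed level of 5 markers of neurons and glia lay between 2.53 and 3.25 CPM in all 4 libraries, with ranges that overlap, and GFAP had at most 3 counts in any library.

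Of 8 called extracellular matrix genes, 6 fell and 2 rose, beside 72 and 39 of all 111 called genes. SPARC, a collagen-binding matrix protein, was the most abundant, with 585 and 601 CPM in the controls against 469 and 432 CPM in TFAP2C KD (log2 fold change -0.40, adjusted p = 0.0212). The laminin subunit LAMB1 (-0.38), MATN2 (-0.58), THSD4 (-0.42), OLFML2B (-0.78) and SRPX (-0.47) fell with it. The transmembrane collagen COL13A1, at 41.6 and 46.1 CPM against 60.3 and 57.5 CPM (0.43), and the hyaluronan synthase HAS3, at 58.6 and 61.4 CPM against 84.1 and 85.5 CPM (0.50), rose. Each of these 8 matrix genes missed the threshold in at least 1 of the 13 other settings. MATN2 and OLFML2B missed it in DESeq2, and OLFML2B, SRPX and COL13A1 with library size scaling. COL13A1 was the only call among 24 collagen genes, beside 0.74% of all genes. Of the 24, 17 lay at or below 0 with a median of -0.11. Genes of the cytoskeleton that fell were the non-muscle myosin heavy chain MYH9, at 799 and 834 CPM against 619 and 564 CPM (-0.47), the LIM proteins PDLIM5 (-0.38) and FHL1 (-0.46), the intermediate filament protein SYNM (-0.50), the sarcoglycan SGCB (-0.49), the septin SEPT4 (-0.56) and FSD1 (-0.67). IFFO2 rose (0.38). AXL, a receptor tyrosine kinase, was the 1 call of edgeR among 29 actin regulators and targets of YAP, where DESeq2 called 4, at 94.7 and 104 CPM against 141 and 133 CPM (0.46), and 22 of the 29 lay above 0 with a median of 0.15. No member passed the test in edgeR or DESeq2 among 37 epithelial junction genes or 15 intermediate filament keratins, of which 6 and 7 had an unadjusted p under 0.05. The keratins with the smallest p-values were KRT15 (0.33, adjusted p = 0.144) and KRT7 (0.57, adjusted p = 0.17). Summed fibroblast markers, mainly from COL1A1, were 46.9 and 49.1 CPM in the controls and 43.4 and 45.2 CPM in TFAP2C KD, and their part in the matrix genes was not tested.

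All 4 genes grouped under innate defence fell, beside 72 of all 111 called genes. APOBEC3F and APOBEC3G are neighbours on chromosome 22 and encode cytidine deaminases that restrict retroviruses. APOBEC3G had 60.7 and 58.4 CPM in the controls and 37.5 and 34.5 CPM in TFAP2C KD (log2 fold change -0.72, SE 0.08, adjusted p = 0.00151). APOBEC3F had 113 and 111 CPM against 82.2 and 74.8 CPM (-0.51, SE 0.07). Both passed in every setting, but the paralogs are similar enough that reads may be divided between them. CD55, which protects cells from complement, had 158 and 167 CPM against 106 and 112 CPM (-0.57, SE 0.07, adjusted p = 0.00246). IFIT1, an interferon-induced protein that binds viral RNA, had 98.7 and 90.2 CPM against 61.2 and 72.5 CPM (-0.50, SE 0.09). IFIT1 was the only call among 41 interferon-stimulated genes, beside 0.74% of all genes. Of the 41, 9 lay above 0, and the median was -0.12, with -0.16 to -0.047 when each library was left out. ISG15 went the other way (0.27, adjusted p = 0.135). Immune cells were all but absent, with 1.40 to 1.79 CPM of summed markers in the controls and 0.981 to 1.25 CPM in TFAP2C KD and at most 3 counts of PTPRC and CD3E in any library.

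In a list of glycolysis and hypoxia genes, 3 rose and 1 fell of 38 tested, beside 0.26% and 0.48% of all genes. SLC2A1, the glucose transporter GLUT1, rose from 88.1 and 94.6 CPM to 128 and 126 CPM (log2 fold change 0.47, SE 0.07, adjusted p = 0.0105). HK2, the hexokinase that traps glucose in the cell, rose from 70.7 and 77.6 CPM to 102 and 107 CPM (0.50, SE 0.08). ADM, the secreted peptide adrenomedullin, had 38.1 and 38.7 CPM against 53.2 and 60.3 CPM (0.56, SE 0.09). The groups were apart in all 3, as they were in all 111 called genes and in 44.7% of all genes tested. Each of the 3 missed the threshold without control replicate 1. SLC2A3, by contrast, fell from 19.4 and 23.6 CPM to 10.9 and 13.8 CPM (-0.79, SE 0.13) and passed in every setting. Of the 38 genes, 31 lay above 0 with a median of 0.098, which stayed above 0 without any single library. Lipid enzymes that rose were the acyl-CoA synthetase ACSL5 (0.43) and the acyltransferase AGPAT4 (0.44). CYP24A1, which breaks down active vitamin D, was among the tightest falls, with 469 and 466 CPM against 315 and 314 CPM (-0.57, SE 0.06, adjusted p = 0.00151). Enzymes of glycan synthesis differed in direction. GALNT5 rose, whereas GNE, which makes the precursor of sialic acid, fell from 86.7 and 85.2 CPM to 57.8 and 53.7 CPM (-0.62), and MAN1A1, a Golgi mannosidase that trims N-glycans, fell from 80.7 and 76.0 CPM to 44.6 and 51.4 CPM (-0.71). Transporters that fell besides SLC2A3 and SLC6A20 were SLC16A6 (-0.76) and ABCC2, an export pump for conjugates (-0.50), and SERINC2 rose (0.40). Among all 256 solute carrier genes 1 rose and 3 fell, and the median was -0.0033, which crossed 0 when a library was left out.

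Receptors, ligands and connexins moved both ways, with 5 higher and 3 lower, beside 39 and 72 of all 111 called genes. TGFBR1, the type I receptor of TGF-beta, fell from 54.8 and 55.2 CPM to 34.9 and 37.9 CPM (log2 fold change -0.60, SE 0.08, adjusted p = 0.00501). It was the call that fell among 22 genes of TGF-beta and BMP feedback, beside 0.48% of all genes. Of the 22, 7 lay above 0, beside 7359 of all 14991 genes, and the median was -0.14. AXL, TNFRSF12A, the receptor of TWEAK (0.40), NT5E, the ectonucleotidase CD73 (0.37), and ADM were among those that rose. SUSD2, a membrane protein with a sushi domain, fell from 47.5 and 47.4 CPM to 30.6 and 25.3 CPM (-0.76). FOSL1 and BTG2 were the calls among 25 AP-1 and immediate early genes, beside 0.26% of all genes that rose. Of the 25, 19 lay above 0 with a median of 0.070, beside -0.0038 for all genes tested. DUSP5, a phosphatase that acts on ERK and is induced by it, rose by 0.35 and was past the threshold in 9 of 13 other settings. Of the kinases, phosphatases and adaptors 3 rose and 9 fell, beside 39 and 72 of all 111 called genes. NRBP1, a pseudokinase, had 124 CPM in both controls and 76.0 and 73.1 CPM in TFAP2C KD (-0.73, SE 0.07, adjusted p = 0.000491). MAPK6, the atypical kinase ERK3 (-0.56), the adaptor GAB2 (-0.70), the regulatory subunit PPP2R5A of protein phosphatase 2A (-0.47), the ARF regulator ASAP1 (-0.41) and SESTD1 (-0.68) fell with it. MRFAP1, which binds MORF4-family chromatin proteins, had 259 and 258 CPM against 166 and 156 CPM (-0.68, SE 0.07, adjusted p = 0.000575).

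Several large lists of housekeeping genes lay above 0 as a whole with hardly any call. Of 81 cytosolic ribosomal protein genes, 74 were above 0 with a median of 0.098, and RPL41 was the only one that passed. Of 46 proteasome genes 40 were (median 0.12), of 87 nuclear genes of the respiratory chain 71 (0.085), of 76 mitochondrial ribosomal protein genes 67 (0.091) and of 41 genes of ribosome biogenesis 37 (0.084), with 0 calls in each by edgeR and DESeq2 and 9, 9, 9 and 10 genes with an unadjusted p under 0.05. These medians kept their sign under other scaling and without any single library. They are, however, about as large as the difference between the knockdown replicates. TFAP2C KD replicate 1 exceeded replicate 2 by a median of 0.10 for cytosolic ribosomal proteins, 0.103 for the proteasome and 0.111 for the respiratory chain. The median log2 fold change of all genes also moved with the level, from -0.11 in the lowest quartile of mean log2 CPM to 0.031 in the highest, and the part of the level in these lists was not tested. Class I histone deacetylases and their partners in the NuRD, SIN3 and CoREST complexes, 33 genes in all, had a median of -0.0014 and 0 calls. Their lowest and highest members were at -0.25 and 0.22. Acetyltransferases and bromodomain readers had 0 calls among 20 genes (median 0.015). The same held for 21 spliceosome proteins (0.024), 25 genes of sterol synthesis (-0.033), 33 of the amino acid response (-0.016), 22 of the unfolded protein response, with SDF2L1 at 0.35 (adjusted p = 0.155), 16 Wnt targets, with CCND1 at 0.32 (adjusted p = 0.060), 17 Notch genes and 20 of NF-kappa-B and inflammation. At an unadjusted p under 0.05, these 9 lists held 1, 2, 1, 0, 2, 2, 2, 0 and 6 genes in the order named, and DESeq2 called only CCND1 in them. The medians of the acetyltransferase and spliceosome lists changed sign with library size scaling, that of the deacetylase list with DESeq2 size factors, and those of the sterol and amino acid lists when a library was left out.

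**Figure D3:**
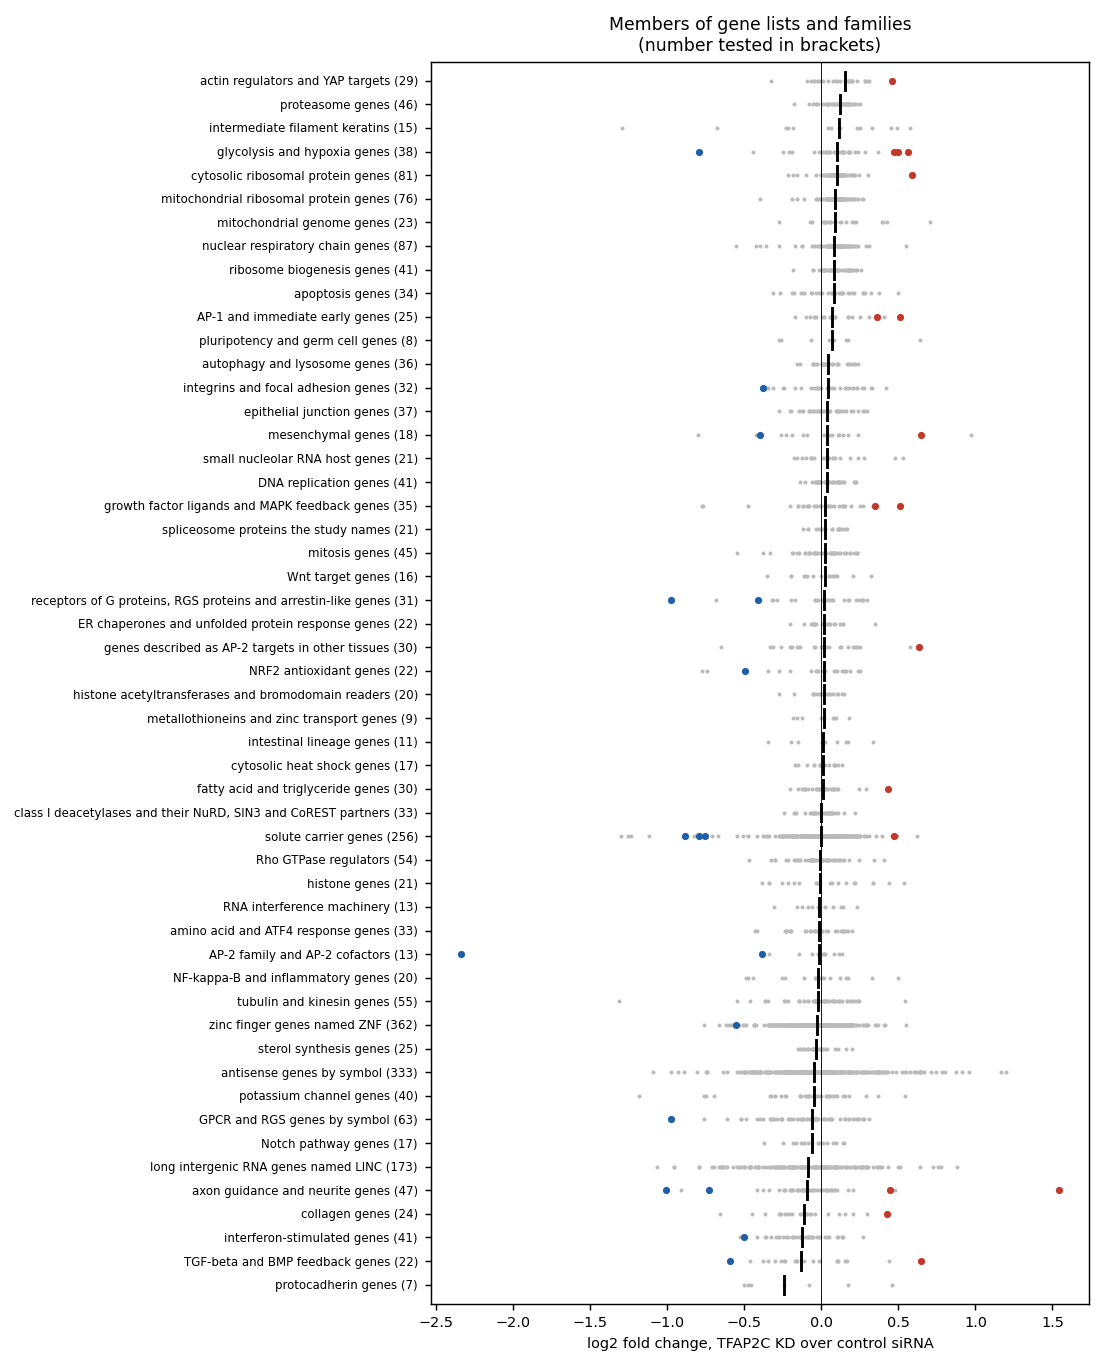
Log2 fold changes of TFAP2C KD over control siRNA for the tested members of each gene list and family with at least 3 tested genes, 1 point per gene, in red where the gene rose, blue where it fell and grey otherwise. The black bars are the medians, which run from -0.25 for protocadherins to 0.15 for actin regulators and YAP targets. Some members that were not called lie as far out as called ones. Collagens run from -0.66 to 0.44, with the called COL13A1 at 0.43.

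By gene type, 110 of the 111 genes are protein coding, with 39 higher and 71 lower of 12940 tested. Among 655 lincRNAs 1 was called, AC016074.2, which had 7.43 and 6.62 CPM in the controls and 3.5 and 4.47 CPM in TFAP2C KD (log2 fold change -0.82, SE 0.16, adjusted p = 0.0321). Its call was lost in DESeq2, with library size scaling and without control replicate 1, and it was not in the fit of all 8 libraries. No gene passed among 793 antisense genes and 603 other noncoding genes, where 58 and 63 had an unadjusted p under 0.05 and DESeq2 called 0. These genes were measured with less precision. Their median SE was 0.29, against 0.093 for coding genes, so a change of the median size seen here was not detectable in most of them. Intergenic RNA genes named LINC had a median of -0.084 over 173 genes, with LINC01503 at -0.71 (adjusted p = 0.13). Antisense genes had a median of -0.048 over 333, with SOX9-AS1 at -0.46 (adjusted p = 0.171). Both classes are of low level, and the lowest level quartile of all genes had a median of -0.11.

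The called genes lay on 22 of 24 chromosomes on which genes were tested, chromosome M included. Chromosome 1 had the most, 7 that rose and 5 that fell, and also the most genes tested, 1500. The share called was highest on chromosome 22, with 1 that rose and 5 that fell, 1.49% of 402 genes. On chromosomes 8, 9, X, 20 and 18 every called gene fell, in number 6, 5, 2, 2 and 1, and on chromosomes 21 and M no gene was called. On 5 occasions 2 called genes lay within 100 kb of each other, with no tested gene between them. KRTAP3-1 (chromosome 17, 41008521 to 41019324) and KRTAP2-3 (41059240 to 41060114) are 39.9 kb apart on the minus strand and rose together. APOBEC3F (chromosome 22, 39040604 to 39055972) and APOBEC3G (39077067 to 39087743) are 21.1 kb apart on the plus strand and fell together. SUSD2 (chromosome 22, 24181487 to 24189106) and GGT5 (24219654 to 24245142), a relative of GGT1 that cleaves leukotriene C4, are 30.5 kb apart and both fell, GGT5 by -1.30. FOSL1 and C11orf68 are 16.2 kb apart on chromosome 11 and both rose, by 0.51 and 0.41. TMEM209 and CPA4 on chromosome 7 are 85.4 kb apart and moved in opposite directions, by -0.45 and 0.76. The median gene body of the genes that fell was 49.8 kb, against 22.4 kb for those that rose and 28.3 kb for genes not called. Over all genes tested the median log2 fold change went from 0.020 in the shortest quartile of gene bodies to -0.033 in the longest. The part of length in the calls was not tested.

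**Figure D4:**
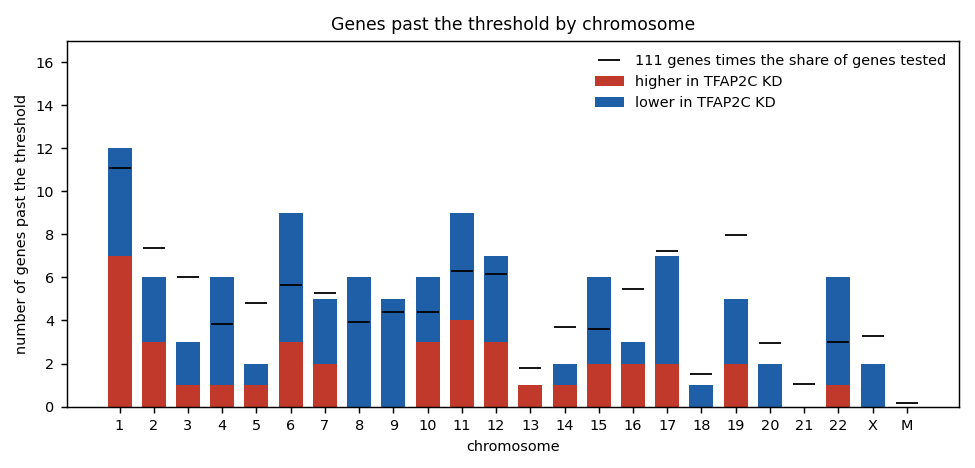
Number of genes past the threshold on each chromosome, with genes that rose in red and those that fell in blue, stacked. The black marks give 111 times each chromosome's share of the genes tested, and chromosome 22 has 6 genes where its mark is near 3.

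The strand setting of the counting is not stated, so a gene can share reads with one that overlaps it. Of the 111 genes, 21 overlap another tested gene, 19 of them on the opposite strand. For 10 genes the partner had at least 50% of the counts of the called gene, and none of these partners was itself past the threshold. Their log2 fold changes stand in brackets. PNMA2 lies across BNIP3L (-0.018) and DPYSL2 (-0.24), RGS5 across NUF2 (-0.046), MATN2 across RPL30 (0.061), GNE across CLTA (0.066), ACSL5 across ZDHHC6 (0.063) and PRSS23 across FZD4 (-0.083). The partner with the lowest value was ARSG (-0.41), which overlaps SLC16A6 (-0.76). IFIT1 shares its span with LIPA (-0.23), LAMB1 with DLD (-0.063) and GGT1 with LRRC75B (0.014) and SNRPD3 (-0.086).

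The promoter of a gene that moved is shown where an AP-2 palindrome could be looked for, although no binding was measured in these libraries. RefSeq promoters on GRCh38.p14 were matched by symbol for 29 of the 39 genes that rose, 48 of the 72 that fell and 10644 of all tested. Since fewer than 80% had one, a comparison of the groups is void. The motif searched was GCCNNNGGC, which reads the same on both strands, in the 250 bases before and the 50 after each start. It was present in 12 of the 29, 16 of the 48 and 32.6% of all promoters, and when a spacer 1 base longer was allowed as well in 14, 28 and 50.7%. The 250 bases upstream of 6 genes are given below, with the matches in capitals and the strand of the gene. The first 2 rose and have a match, DHRS2 rose by the fourth largest amount and has none, FSD1 and MYH9 fell and have a match, and TFAP2A fell and has none.
ANKRD33B, chr5:10563820-10564069, plus strand: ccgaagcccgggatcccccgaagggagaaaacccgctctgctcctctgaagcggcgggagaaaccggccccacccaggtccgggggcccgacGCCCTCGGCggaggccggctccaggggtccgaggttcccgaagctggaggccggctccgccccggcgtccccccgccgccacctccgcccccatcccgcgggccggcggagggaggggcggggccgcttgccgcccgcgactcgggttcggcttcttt
AXL, chr19:41218973-41219222, plus strand: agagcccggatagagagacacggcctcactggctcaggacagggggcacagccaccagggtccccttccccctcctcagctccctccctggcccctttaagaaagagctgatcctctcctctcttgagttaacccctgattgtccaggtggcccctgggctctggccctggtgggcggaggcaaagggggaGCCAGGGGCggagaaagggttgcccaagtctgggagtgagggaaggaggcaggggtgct
DHRS2, chr14:23629865-23630114, plus strand: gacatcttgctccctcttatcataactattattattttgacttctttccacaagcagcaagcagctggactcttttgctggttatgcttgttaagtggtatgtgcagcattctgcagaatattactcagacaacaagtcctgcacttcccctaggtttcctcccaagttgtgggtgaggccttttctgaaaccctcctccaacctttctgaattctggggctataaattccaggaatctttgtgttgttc
FSD1, chr19:4304348-4304597, plus strand: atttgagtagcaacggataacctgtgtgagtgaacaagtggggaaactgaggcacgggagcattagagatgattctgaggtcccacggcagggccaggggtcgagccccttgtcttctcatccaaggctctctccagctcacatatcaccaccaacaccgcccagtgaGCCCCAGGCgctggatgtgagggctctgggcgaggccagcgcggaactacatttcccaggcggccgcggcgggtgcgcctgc
MYH9, chr22:36387968-36388217, minus strand: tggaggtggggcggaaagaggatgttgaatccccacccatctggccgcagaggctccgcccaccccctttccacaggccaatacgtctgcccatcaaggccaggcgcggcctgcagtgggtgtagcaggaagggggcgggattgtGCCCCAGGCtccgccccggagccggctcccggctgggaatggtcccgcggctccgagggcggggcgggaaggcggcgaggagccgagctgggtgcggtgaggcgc
TFAP2A, chr6:10419660-10419909, minus strand: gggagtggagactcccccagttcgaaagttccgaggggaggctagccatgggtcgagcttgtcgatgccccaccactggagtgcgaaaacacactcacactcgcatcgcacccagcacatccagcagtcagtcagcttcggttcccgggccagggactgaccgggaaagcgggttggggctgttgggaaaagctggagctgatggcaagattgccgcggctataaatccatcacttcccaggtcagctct
The match begins 158 bases before the start in ANKRD33B, 59 in AXL, 82 in FSD1 and 105 in MYH9. A match of these letters is a description of the sequence and does not show a site.

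A second experiment, with other samples and 2 libraries per group, used HCT116 cells with the Tet-On shRNA. Those labelled SAE2 kd had Dox at 1 µg/mL for 5 days, and their control had DMSO and no Dox for the same time. UBA2 mRNA was not lower there by the test. It had 162 and 146 CPM without Dox and 147 and 153 CPM with it (log2 fold change -0.04, adjusted p = 0.766), so these are called the libraries labelled SAE2 kd. The table of that experiment has other gene models and was fitted on its own, and 12158 genes were tested in both. Of these, 10.6% were called in the libraries labelled SAE2 kd, 5.86% higher and 4.71% lower. Of 38 genes that rose in TFAP2C KD and were tested there, 17 were also higher, 44.7% of them and 2.39% of the 712 higher genes of that experiment. Of 66 that fell, 16 were also lower, 24.2% of them and 2.79% of the 573 lower genes. FOSL1, AXL, NT5E and COL13A1 rose in both, with log2 fold changes there of 0.63, 0.51, 0.47 and 0.50. CYP24A1 fell in both, by -0.57 and -0.56, with a difference of -0.02 (SE 0.07), and IFIT1 (-0.82), MAN1A1 (-0.50), HR (-0.50) and BDNF (-0.40) fell there too.

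For other genes the change differed between the experiments by a test of the difference itself, made in a fit of all 8 libraries over 13179 shared symbols that called 313 (2.37%). Of the genes of TFAP2C KD, 16 of 39 that rose and 20 of 69 that fell did so. They had been called from the same TFAP2C KD libraries, so these counts are no added support for their change. NAV3 changed by 0.04 (SE 0.08) in the libraries labelled SAE2 kd, which is 1.5 less than in TFAP2C KD (SE 0.15, adjusted p = 8.84e-05). DHRS2 changed by 0.04 as well (difference 1.33, SE 0.23), and the differences were 0.98 for GALNT5, 0.53 for CDKN1A and 0.62 for SFN. Among genes that fell, NRBP1 (difference -0.74) and MRFAP1 (-0.65) changed by -0.01 and -0.04 there. TFAP2C itself was at 7.8 and 7.81 CPM without Dox and 5.94 and 6.87 CPM with it, a change of -0.28 that did not pass the test (adjusted p = 0.222) and differed from that in TFAP2C KD by -2.07. These differences are between an siRNA for 48 hrs and an shRNA with Dox for 5 days. The controls of the experiments also differed in the level of some genes. APOBEC3G had 60.7 and 58.4 CPM with control siRNA and 0.374 and 0.623 CPM without Dox, and ACSL5 36.2 and 35.0 against 339 and 318 CPM. AXL was closer, at 94.7 and 104 against 120 and 119 CPM. The target, the method, the time, the starting state of the cells and the counting cannot be told apart.

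**Figure D5:**
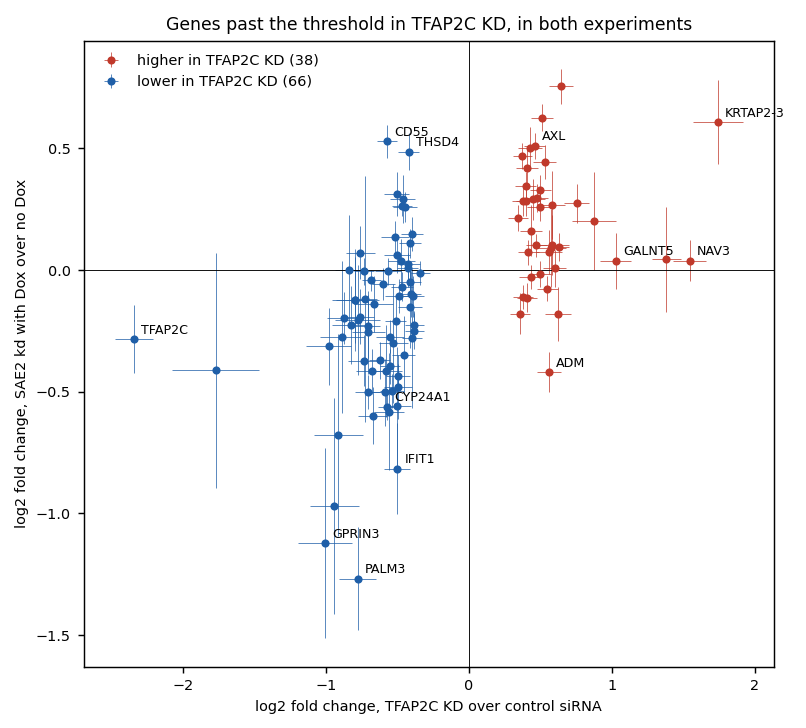
Log2 fold changes of the called genes of TFAP2C KD, 38 that rose in red and 66 that fell in blue, in TFAP2C KD (x axis) and in the libraries labelled SAE2 kd with Dox over no Dox (y axis), with standard errors as bars. AXL lies above 0 on both axes, NAV3 lies near 0 on the y axis, and CD55 and THSD4 lie in the upper left with opposite signs.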

How the data were processed

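mRNA-seq of 4 HCT116 libraries, 2 with control siRNA and 2 with TFAP2C siRNA, was analysed. Per the study's methods and processing notes, reads were aligned with TopHat2 to hg19 and counted on genes with HTSeq 0.9.1, and the authors deposited whole read counts per gene without normalization. The table used here has gene positions of GRCh38 and gene types in the style of Ensembl, which differ from those notes. The strand setting is not given in the sources used here. Of all count columns, 0 belonged to unknown samples.

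In R 4.3.3, filterByExpr of edgeR 4.0.16 kept 14991 genes. TMM scaling and the two-sided quasi-likelihood test with Benjamini-Hochberg adjustment followed, without a replicate term, and an adjusted p under 0.05 was called. The biological coefficient of variation was 6.28%. With 2 libraries per group, an exact permutation test on a single gene cannot go below 0.333. SE is the log2 fold change over the root of F. The code was tested on simulated data. The alternatives were scaling by DESeq2 size factors or by library size, no filter, 10 counts in every library, a replicate block, the Wald test of DESeq2 1.42.0, all 8 libraries together, no mitochondrial genes and each library left out. Figures were drawn with matplotlib 3.10.9 in Python 3.11.15.

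Members and lists were chosen with earlier results of these data known. Named with values were TFAP2C, the 12 largest rises and falls (mean log2 CPM of at least 1, both knockdown libraries beyond both controls), up to 4 called members of a list, or the 2 with the smallest p where none passed, called noncoding genes and called pairs within 100 kb. Other called genes are named in groups of roles. KCTD15 and ISG15 were chosen after seeing their values. NAs of DESeq2 were left out. Some named genes are not reported here. Promoters are from RefSeq, and protein sequences were not used here.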

Additional observations from a re-analysis of the deposited data

Results flagged for a closer look

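For 6 genes the change in TFAP2C KD was past the threshold in one direction and that in the libraries labelled SAE2 kd in the other. The difference itself was tested in 1 fit of all 8 libraries and passed for each of the 6, with adjusted p from 3.08e-05 to 0.00158, and in each of 10 other settings. The 6 were picked for opposite changes past the threshold in these same libraries. That they passed was therefore largely set by the choice and is no added support. CD55 fell by 0.57 on the log2 scale in TFAP2C KD and was higher by 0.53 with Dox, where it had 50.5 and 50.3 CPM without and 69.3 and 76.1 CPM with Dox, a difference of -1.11. THSD4 differed by -0.92, from 27.8 and 27.6 CPM to 38.7 and 38.9 CPM with Dox. NCOA7 differed by -0.83, MYH9 by -0.74 and TMEM209 by -0.72. ADM went the other way, with 44.5 and 44.0 CPM without and 36.9 and 29.3 CPM with Dox, and differed by 0.97.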

How the results depend on the processing

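TFAP2C fell by 2.19 to 2.50 on the log2 scale in all 13 alternatives. Against 39 genes that rose and 72 that fell, scaling by library size left 23 that rose, no filter gave 142 and 256, and all 8 libraries in 1 fit gave 107 and 164. With a replicate block 48 rose and 124 fell. The replicate numbers were not shown to pair the libraries, since deviations of same-numbered libraries correlated at -0.139. The crossed pairing, added after this was seen, gave 201 and 266. Leaving out 1 library gave 14 to 1330 that rose and 35 to 1495 that fell, which leaves 1 group with a lone library assumed to vary like the other. The difference from the libraries labelled SAE2 kd gave 313 genes, 173 with a replicate block and 113 to 1554 with 1 library left out. The cause of these shifts was not tested. Other scaling and the filter at 10 counts changed little (41 and 71, 39 and 67), as did leaving out mitochondrial genes (39 and 72). Library size scaling lowered the median of all genes to -0.032 and the share of rising genes to 27.1%. With a spacer 1 base longer allowed too, the promoter share was 48.3% for rising, 58.3% for falling and 50.7% for all genes, against 41.4%, 33.3% and 32.6%. Of the values of single genes under these alternatives, 1972 kept their side of the threshold, 116 gained it and 171 lost it, and 0 changed sign past it. Of list medians 602 stayed within the replicate spread and 98 did not. For genes of low level depth limits what could be called.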
